A study of Mus musculus with 6 samples.

Results

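Cadherins are the calcium-dependent adhesion proteins of adherens junctions, and 10 genes of this superfamily, Cdh1, Cdh2, Cdh4, Cdh6, Cdh7, Cdh8, Cdh10, Cdh11, Cdh13 and Cdh22, are described here in mouse islets cultured with prolactin. They were picked by gene symbol out of 48397 genes in the count tables, with earlier results of the comparison of prolactin and control libraries known, so that their differences between the conditions are descriptions, given without p-values. Other cadherin genes are in the tables too and are counted separately below. The tissue was islets isolated from wild-type C57B6 mice, whose cell type the labels give as mixed. In the prolactin group the islets received 500 ng/mL of recombinant mouse prolactin for 24 h after a night of recovery in culture, and in the control group DMSO for the same time, with 3 polyadenylated-RNA libraries in each group. The labels do not say whether the libraries of a group came from separate animals or cultures, so any p-value measures the spread between these libraries, which may be technical.

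Classical cadherins span the membrane with a series of extracellular cadherin repeats, which bind cadherins on the neighbouring cell, and a cytoplasmic tail. The tail binds p120-catenin and beta-catenin, and alpha-catenin links that complex to actin. Type I cadherins (Cdh1, Cdh2 and Cdh4 here) and type II cadherins (Cdh6, Cdh7, Cdh8, Cdh10, Cdh11 and Cdh22) differ in how the outermost repeat docks, and Cdh13 has no tail and is held by a lipid anchor. In islets, E-cadherin (Cdh1) and N-cadherin (Cdh2) are known to hold endocrine cells together. Lactogenic hormones such as prolactin act on beta cells through STAT5.

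The libraries held 230833584 to 530296257 reads assigned to genes, the most in control replicate 1. Levels are given as CPM, read counts scaled to TMM-adjusted library totals. Prolactin replicates 2 and 3 were closer to each other than other pairs, with a median absolute log2 difference of 0.047 between them against 0.093 to 0.169 for the remaining 14 pairs, and a chi-square of 7.78 per degree of freedom (median over genes 3.56 times that of independent reads). Both figures assume independent reads, which mates counted separately would not be, and whether this pair repeats one sample was not tested. They were kept as separate libraries, and values with both summed are given where that changes a call. Markers of the labelled tissue were abundant: 8 beta-cell markers summed to between 116900 and 122300 CPM in prolactin libraries and between 114600 and 141200 CPM in control libraries.

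Among the 10 genes, Cdh7 and Cdh11 stood highest in prolactin relative to control, at 1.56-fold and 1.64-fold, while the abundant Cdh1 and Cdh2 differed by less than 1 SE of their change. Cdh7 was higher in every prolactin library than in any control library, and so were Cdh11 and the very weakly expressed Cdh10. Cdh8 was lower in every prolactin library than in any control library, by 0.16 on the log2 scale. The groups overlapped for the other 6 genes. All 10 genes passed the filter on low counts. In edgeR's quasi-likelihood fit across 23924 genes, 1 of the 10 (Cdh7) lay above control and 0 below at an adjusted p under 0.05, where 0.757% of all tested genes were called in either direction and 0.652% higher. Before adjustment 2 lay above and 1 below with p under 0.05, as did 14.5% of all tested genes in either direction, and DESeq2 and limma-voom each called Cdh7 alone. Since that comparison was known when the genes were chosen, nothing is read from those counts. Of all tested genes, 11.3% had the prolactin libraries entirely above and 10.4% entirely below the control libraries, against 3 and 1 of the 10. The median log2 change of the 10 was 0.09 (range -0.21 to 0.72), and that of all tested genes was 0.0004.

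**Figure D1:**
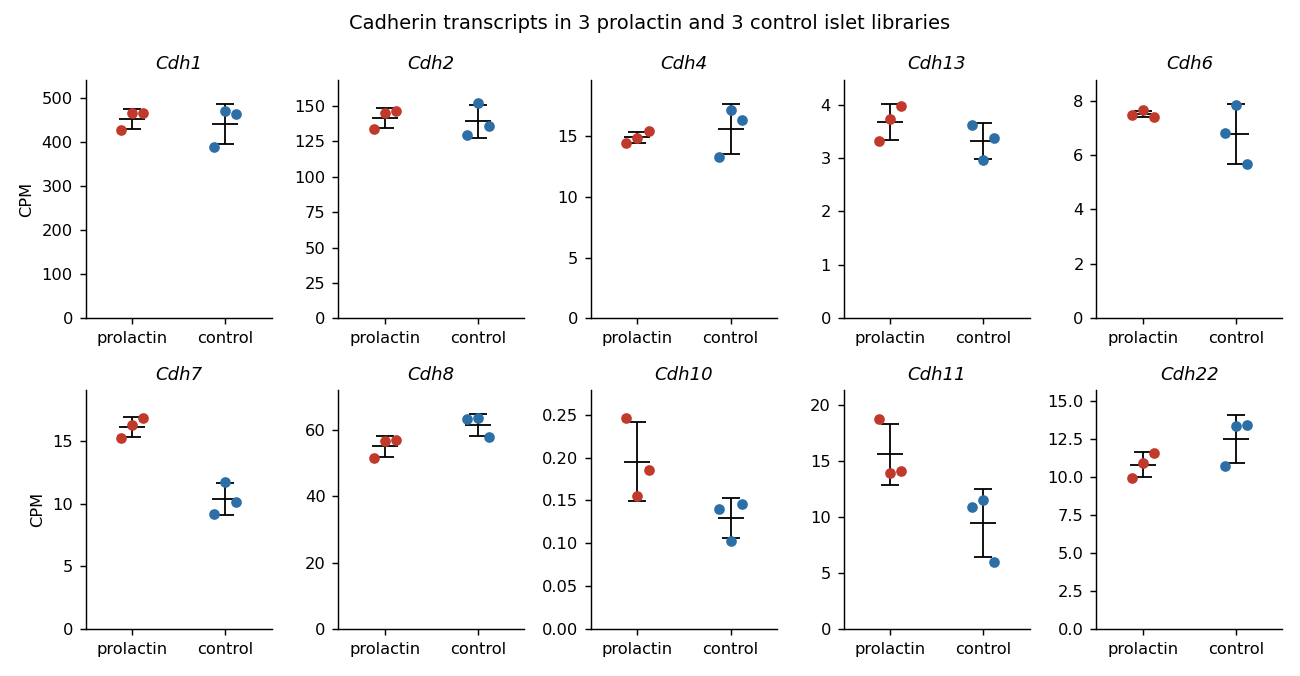
CPM of each of the 10 cadherin genes (vertical axes from 0, each gene on its own scale) in the 3 prolactin (red) and 3 control (blue) libraries, with bars for the mean ± SD. Cdh7 lies between 15.3 and 16.9 CPM in prolactin and between 9.22 and 11.8 CPM in control, and Cdh1, Cdh2, Cdh4, Cdh6, Cdh13 and Cdh22 overlap between the groups.

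Cdh7 (chr1:109982431-110140157 on mm10, plus strand), a type II cadherin described in the chick neural crest and nervous system, had 15.3, 16.3 and 16.9 CPM in prolactin libraries 1, 2 and 3, against 9.22, 11.8 and 10.2 CPM in control libraries 1, 2 and 3. The lowest prolactin library thus lay above the highest control library. The prolactin libraries spanned less than the control libraries on the log2 scale, as they did for every other member except Cdh8 and Cdh10. On average it stood at 16.1 ± 0.8 CPM in prolactin and 10.4 ± 1.3 CPM in control (SD, n = 3 each), a log2 change of 0.64 with an SE of 0.093. These values rest on 2721 to 4950 reads per library. The log2 change stayed between 0.56 and 0.74 when any single library was left out. Cdh7 no longer lay past the threshold of the fit across all genes without prolactin replicate 2 (log2 change 0.63), without prolactin replicate 3 (0.60) or with those 2 libraries summed as 1 (0.62). In the deposited gene models no other gene lies within the span of Cdh7, so none of its reads compete with an overlapping gene.

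RefSeq lists 3 transcription starts for Cdh7 in the GRCm38.p6 build, whose upstream windows partly overlap exons of other Cdh7 transcripts. The 250 bases before each were searched on both strands for TTCNNNGAA, the core that STAT5 recognises, and for CACCTG, the E-box bound by the Snail and ZEB repressors of cadherin genes and a special case of the wider CANNTG. No window of Cdh7 held TTCNNNGAA, nor did those of Cdh6, Cdh8, Cdh10 and Cdh22, the other members with a window in the sequences used here, while 7.02% of 32851 RefSeq windows did. Cdh1, Cdh2, Cdh4, Cdh11 and Cdh13 had no window in those sequences and were not searched. The wider CANNTG stood in 66.2% of all windows. CACCTG was present before 2 of the 3 Cdh7 starts, at 24 and at 83 bases, and in 17.2% of all windows. Those 2 sites are shown in 30 bases of the plus strand each, with the motif in capitals as its reverse complement, and beneath them stands the whole window of Cdh8 (minus strand, 5′ to 3′), the gene whose prolactin libraries all lay below control, with no TTCNNNGAA and no CACCTG, and 1 CANNTG at 48 bases before the start.
Cdh7 first start, chr1:109982864-109982893: tgcggggctgagCAGGTGccggtccgctgc
Cdh7 last start, chr1:109983628-109983657: tattccgttggtCAGGTGcatcttcagggt
Cdh8, chr8:99416472-99416721: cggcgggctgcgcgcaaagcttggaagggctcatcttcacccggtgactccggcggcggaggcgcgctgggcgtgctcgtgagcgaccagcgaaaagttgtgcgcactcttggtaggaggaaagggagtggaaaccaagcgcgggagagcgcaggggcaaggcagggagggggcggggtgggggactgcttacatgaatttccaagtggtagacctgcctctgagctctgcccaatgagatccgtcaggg
A match is a description of these letters and not a binding site, and a missing match covers only these windows. GC content was 60.8%, 61.6% and 50.4% before the 3 Cdh7 starts and 64.4% before that of Cdh8, with a median of 52.4% over all windows.

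Cdh11 (chr8:102632095-102785642, minus strand), OB-cadherin of osteoblasts and other mesenchymal cells, had 18.7, 13.96 and 14.1 CPM in prolactin libraries 1, 2 and 3, against 10.9, 11.6 and 5.96 CPM in control libraries 1, 2 and 3. The groups did not overlap, but prolactin library 1 was well above the other 2 and control library 3 well below the other 2. It averaged 15.6 ± 2.7 CPM in prolactin and 9.47 ± 3.06 CPM in control (SD, n = 3 each), a log2 change of 0.72 with an SE of 0.22, more than double the SE of Cdh7. Without control replicate 3 the log2 change was 0.47.

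The markers of fibroblasts, stellate cells and pericytes, taken as a mean, were highest and lowest in the same libraries as Cdh11. Their mean log2 CPM, relative to its mean over the 6 libraries, was 0.49, 0.17 and 0.19 in prolactin libraries 1, 2 and 3 and -0.03, -0.10 and -0.70 in control libraries 1, 2 and 3. The same quantity for Cdh11 alone was 0.66, 0.24 and 0.25 in the prolactin libraries and -0.12, -0.04 and -0.99 in the control libraries. Both were thus highest in prolactin library 1 and lowest in control library 3. Control library 3 was also lowest for the alpha-cell, Schwann-cell and neuron markers (-0.32, -0.29 and -0.39). Prolactin library 1 was also highest for the duct markers (0.40). Of the 10 markers of fibroblasts, stellate cells and pericytes, 10 had positive changes and 2 passed edgeR's test (Col1a1 and Col1a2, both collagen I chains), and none was at 0. Their summed level ran from 735 to 916 CPM in prolactin and from 367 to 546 CPM in control. Most of that sum was Col1a1, Col1a2 and Col3a1, with log2 changes of 0.86, 0.92 and 0.77. Dcn, Lum, Pdgfrb and Cspg4 overlapped between the groups (log2 changes 0.41, 0.23, 0.21 and 0.26), while Pdgfra, Acta2 and Rgs5 did not (0.52, 0.93 and 0.23). The part of these cells in the difference of Cdh11 was not tested, and in bulk RNA fewer cells of a type and less RNA per cell cannot be told apart. Relative to its own mean, Cdh7 was 0.24, 0.34 and 0.38 in prolactin libraries 1, 2 and 3 and -0.49, -0.13 and -0.34 in control libraries 1, 2 and 3, lowest in control library 1, where the mesenchymal markers were at -0.03. Like Cdh7, the mean of the mesenchymal markers was higher in every prolactin library than in any control library, as were those of the endothelial and alpha-cell markers. The part of any of these cells in the level of Cdh7 was not tested either.

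**Figure D2:**
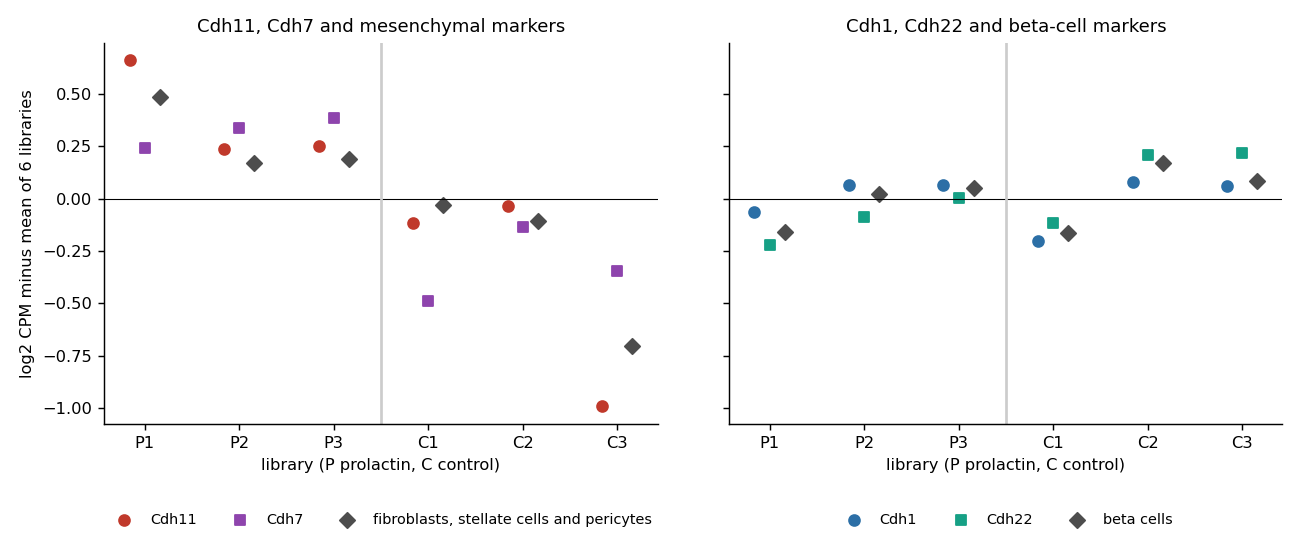
Log2 CPM of single cadherins and mean log2 CPM of marker lists, each minus its mean over the 6 libraries (vertical axis, log2), by library. Cdh11 and the mesenchymal markers are both highest in P1 and lowest in C3, Cdh7 is lowest in C1, and Cdh1 lies with the beta-cell markers between -0.20 and 0.17.

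Cdh10 (chromosome 15), a type II cadherin known from the brain, was close to the lower limit of the measurement. It had 57, 36 and 49 reads in prolactin libraries 1, 2 and 3, or 0.246, 0.155 and 0.185 CPM, against 75, 28 and 39 reads in control libraries 1, 2 and 3, or 0.140, 0.103 and 0.146 CPM. All prolactin values lay above all control values, the closest pair at 0.155 and 0.146 CPM, and the log2 change was 0.58 with an SE of 0.27.

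Cdh8 (chr8:99024471-99416471, minus strand), a type II cadherin of the nervous system, was the most abundant type II member. It had 51.5, 56.9 and 57.1 CPM in prolactin libraries 1, 2 and 3, against 63.3, 63.6 and 57.9 CPM in control libraries 1, 2 and 3. Every prolactin library was lower, though prolactin library 3 and control library 3 differed by under 1 CPM. The means were 55.2 ± 3.2 CPM in prolactin and 61.6 ± 3.2 CPM in control (SD, n = 3 each), a log2 change of -0.16 with an SE of 0.063, and the change remained negative in all 15 alternative fits. Of the marker lists, only that for delta and PP cells had a mean lower in every prolactin library than in any control library. The means of the neuron and Schwann-cell lists overlapped between the groups. The list for delta and PP cells held 4 genes: Sst (somatostatin) was lower in prolactin past edgeR's threshold (log2 change -0.40), Ppy (pancreatic polypeptide) had -0.74 without passing, Hhex and Ghsr had -0.018 and 0.001, and none was at 0. Their summed level, nearly all Sst and Ppy, ran from 3558 to 4480 CPM in prolactin and from 5708 to 5899 CPM in control. Within the prolactin libraries the order differed: relative to their means, these markers were at -0.07, -0.17 and -0.20 in libraries 1, 2 and 3, where Cdh8 was at -0.18, -0.03 and -0.03. Their part in the level of Cdh8 was not tested. A locus without a gene name, Gm15679, shares 23 exonic bases with Cdh8 on the opposite strand and had at most 16 reads in any library, where Cdh8 had 11931 reads or more.

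Cdh22, a pituitary and brain cadherin first described in rat, had 9.94, 10.9 and 11.6 CPM in prolactin libraries 1, 2 and 3, against 10.7, 13.3 and 13.5 CPM in control libraries 1, 2 and 3. Control library 1 fell within the prolactin range, so the groups overlapped despite a log2 change of -0.21 (SE 0.10). Cdh6, the kidney cadherin, had 7.48, 7.65 and 7.41 CPM in prolactin libraries and 6.81, 7.84 and 5.66 CPM in control libraries, a log2 change of 0.15 (SE 0.11). Its prolactin libraries lay within the control range, which was wider (0.47 against 0.05 on the log2 scale).

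Among the type I members, Cdh1 (chr8:106603351-106670246, plus strand), E-cadherin of epithelial cells, had 427, 466 and 465 CPM in prolactin libraries 1, 2 and 3, against 388, 470.2 and 464 CPM in control libraries 1, 2 and 3. Library 1 was the lowest in each group, and the groups overlapped. The means were 452 ± 22 CPM in prolactin and 441 ± 46 CPM in control (SD, n = 3 each), a log2 change of 0.04 with an SE of 0.085. Relative to its mean over the 6 libraries, Cdh1 was -0.06, 0.06 and 0.06 in prolactin libraries 1, 2 and 3 and -0.20, 0.08 and 0.06 in control libraries 1, 2 and 3, where the 8 beta-cell markers had -0.16, 0.02 and 0.05 in prolactin and -0.17, 0.17 and 0.08 in control. Both were lowest in library 1 of each group. Acinar markers varied widely, with sums from 720 to 1645 CPM in prolactin libraries and from 437 to 2470 CPM in control libraries. The part of any cell type in the level of Cdh1 was not tested.

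Cdh2, N-cadherin, which islet endocrine cells also use, had 134, 145 and 147 CPM in prolactin libraries and 130, 152 and 136 CPM in control libraries (log2 change 0.03, SE 0.071). Cdh4, R-cadherin of retina and kidney, had 14.5, 14.8 and 15.4 CPM in prolactin libraries and 13.2, 17.2 and 16.4 CPM in control libraries (log2 change -0.06, SE 0.095). For both genes the control libraries spanned the prolactin range. The changes of Cdh1, Cdh2 and Cdh4 switched sign in 1 of the 15 alternative fits each, all of them fits that left out a library, and stayed between -0.17 and 0.09.

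Cdh13, T-cadherin, which binds adiponectin and is known from vascular cells, had 3.32, 3.72 and 3.98 CPM in prolactin libraries and 3.62, 2.96 and 3.37 CPM in control libraries, and the groups overlapped (log2 change 0.15, SE 0.11). The vascular counterpart Cdh5, VE-cadherin, which is not among the 10, had 53.2 ± 1.1 CPM in prolactin and 51.6 ± 5.9 CPM in control (SD, n = 3 each; log2 change 0.04, edgeR adjusted p = 0.846). For 9 of 9 endothelial markers the change was positive (median 0.17 on the log2 scale), and their summed levels ran from 279.9 to 288 CPM in prolactin and from 240.0 to 264 CPM in control. Of these, 1 (Vwf) passed edgeR's test and none was at 0.

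**Figure D3:**
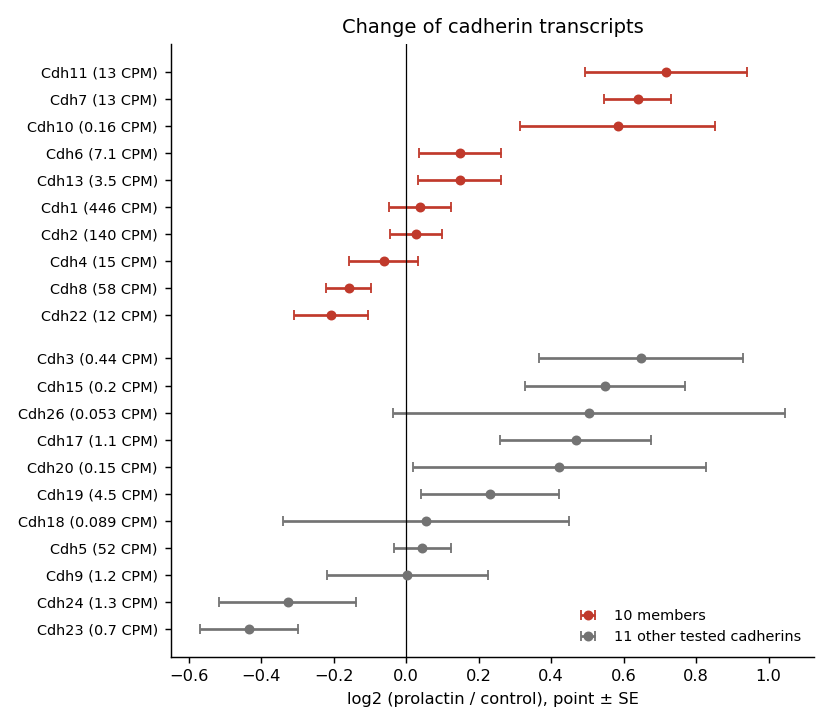
Log2 change of prolactin over control (horizontal axis) with its SE for the 10 described cadherins (red) and the 11 other tested cadherins (grey), each with its mean CPM over the 6 libraries. The values run from -0.21 for Cdh22 to 0.72 for Cdh11 in the upper set and from -0.43 for Cdh23 to 0.65 for Cdh3 in the lower set, where the widest SEs belong to genes under 1 CPM.

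To compare levels between genes, CPM were divided by the summed exon length that the deposited tables give for each gene (RPKM). Cdh1 had 98.9 ± 4.9 RPKM in prolactin and 96.3 ± 10.0 RPKM in control, Cdh2 17.6 ± 0.9 RPKM in prolactin and 17.3 ± 1.4 RPKM in control, and Cdh8 7.13 ± 0.41 RPKM in prolactin and 7.96 ± 0.42 RPKM in control (SD, n = 3 each). Then came Cdh22, Cdh6, Cdh4, Cdh11, Cdh7, Cdh13 and Cdh10, in the same order of mean levels in both groups. Over the control libraries, neighbours in that order whose ranges overlapped were Cdh22 and Cdh6, Cdh6 and Cdh4, and Cdh11 and Cdh7. In the prolactin libraries they were Cdh22 and Cdh6, Cdh4 and Cdh11, and Cdh11 and Cdh7, with Cdh4 from 1.99 to 2.12 RPKM and Cdh11 from 1.57 to 2.103 RPKM. The exon lengths sum all annotated transcripts (10.0 kb for Cdh7 and 2.63 kb for Cdh6), so that a gene with long rarely used exons is placed too low.

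**Figure D4:**
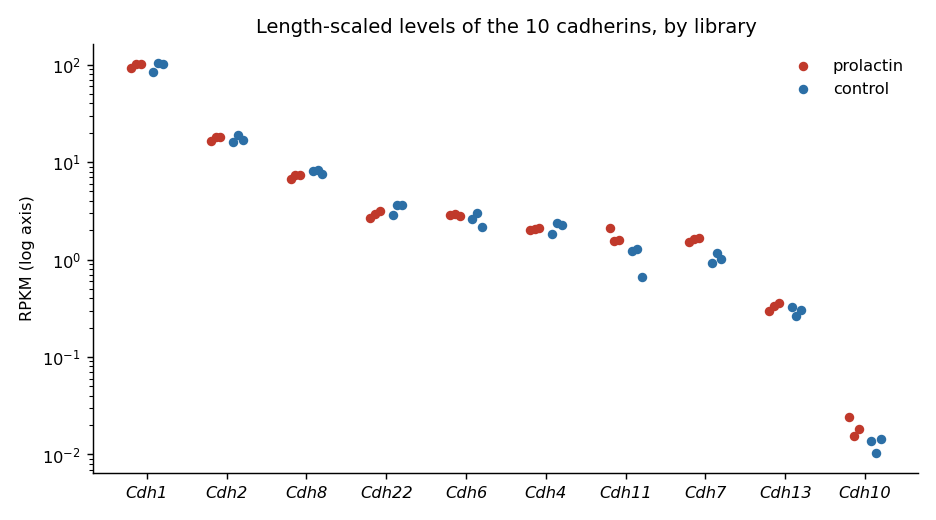
RPKM of the 10 cadherins (logarithmic vertical axis), in order of mean control level, with each prolactin (red) and control (blue) library as a point. Cdh1 lies near 100 RPKM (84.7 to 103 RPKM), Cdh7 from 1.52 to 1.68 RPKM in prolactin and from 0.918 to 1.17 RPKM in control, and Cdh10 under 0.03 RPKM.

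The summed length-scaled level of the 10 genes was 135 ± 6 RPKM in prolactin and 132 ± 12 RPKM in control (SD, n = 3 each). Cdh1 and Cdh2 together made up 85.8% to 86.4% of it in prolactin libraries and 84.9% to 87.1% in control libraries. The 6 type II members summed to 16.3 ± 0.4 RPKM in prolactin and 16.02 ± 1.17 RPKM in control, so that this sum differed by less than the spread of the control libraries while its makeup differed. Cdh7 was 9.61%, 9.91% and 10.1% of the type II sum in prolactin libraries 1, 2 and 3, against 5.81%, 6.78% and 6.77% in control libraries 1, 2 and 3. Cdh11 was 13.3%, 9.55% and 9.53% in prolactin, against 7.75%, 7.51% and 4.47% in control. Cdh8 was 42.0%, 44.8% and 44.4% in prolactin, against 51.7%, 47.5% and 49.98% in control. The ratio of Cdh7 to Cdh4 in RPKM within a library, which no scaling of libraries can alter, was 0.763, 0.795 and 0.791 in prolactin and 0.503, 0.496 and 0.4496 in control. Against Cdh8 it was 0.221 to 0.229 in prolactin and 0.112 to 0.143 in control, and against Cdh22, the member with the most negative change, 0.536 to 0.567 in prolactin and 0.279 to 0.325 in control. These shares and ratios restate the comparison that was known when the genes were chosen.

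The genes whose pattern over the 6 libraries was most like that of Cdh7 were found by the root mean square difference of log2 CPM, each gene centred on its own mean, among 13086 other named genes averaging 1 CPM or more. They were Plppr1, Ldb2, Car8, Prkd1 and B3galnt1, at differences of 0.051 to 0.071, where the median over all these genes was 0.351. Plppr1, a phospholipid phosphatase-related membrane protein, had 7.32 ± 0.39 CPM in prolactin and 4.93 ± 0.53 CPM in control. The LIM-domain binding factor Ldb2 had 2.15 ± 0.13 CPM in prolactin and 1.40 ± 0.09 CPM in control. Car8, a carbonic anhydrase-related protein, was the most abundant, with 133 ± 7 CPM in prolactin and 79.7 ± 7.1 CPM in control. The kinase gene Prkd1 had 33.2 ± 2.2 CPM in prolactin and 22.1 ± 2.0 CPM in control, and the glycosyltransferase gene B3galnt1 67.5 ± 4.4 CPM in prolactin and 44.4 ± 3.5 CPM in control (SD, n = 3 each). The match used all 6 libraries and so took in the difference between the groups. That these genes were higher in prolactin thus follows from the search and is no separate result. None of them stands in the adhesion lists used here. For Cdh11, a search added after its values were seen gave Lox, Serpinf1, Col12a1, Pdgfra and Mmp12 at differences of 0.058 to 0.114. Of these, only Pdgfra, a growth factor receptor of fibroblasts, stands in a marker list used here, that of the mesenchymal markers. Their being higher in prolactin again follows from the search, and what they share with Cdh11 was not tested.

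The rest of the junction machinery was read from 8 lists with 104 genes, of which 102 could be tested. In edgeR's test 0 of them rose and 0 fell at an adjusted p under 0.05, where 0.757% of all tested genes were called in either direction. Before adjustment 15 lay above and 5 below with p under 0.05, as did 14.5% of all tested genes in either direction. Limma-voom called 0 of them, where it called 156 higher and 21 lower over all genes. DESeq2 called 5 higher (Fat1, Mmp14, Pcdh17, Snai1 and Tcf4) and 0 lower, where it called 776 higher and 303 lower over all genes. Changes were positive for 73 of the 102, a count with no share over all tested genes beside it. They included 11 of 17 catenins and junction adaptors, 3 of 7 desmosome genes and 8 of 14 processing enzymes. In the list of FAT, Dachsous, CELSR and calsyntenin genes they were 7 of 12. Nothing is read from these counts or from those of the single lists below. The median log2 change of the 102 genes was 0.09, against 0.0004 for all tested genes.

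Of the 13 other cadherins, 11 were tested, 9 had positive changes, and 0 passed (before adjustment, 2 higher and 1 lower at p under 0.05; DESeq2 and limma-voom 0). Cdh23, of the tip links of hair cells, had 0.598 ± 0.024 CPM in prolactin and 0.809 ± 0.013 CPM in control (log2 change -0.43, SE 0.14, edgeR adjusted p = 0.197). P-cadherin Cdh3 and M-cadherin Cdh15 were also under 1 CPM, with log2 changes of 0.65 (edgeR adjusted p = 0.339) and 0.55 (edgeR adjusted p = 0.301). Cdh12 and Cdh16 were too low to be tested, at 0.019 and 0.030 CPM on average.

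Of 17 catenins and junction adaptors, 0 passed (before adjustment, 1 higher and 0 lower at p under 0.05; DESeq2 and limma-voom 0), with a median log2 change of 0.02. Vinculin Vcl had 31.4 ± 1.4 CPM in prolactin and 28.7 ± 1.0 CPM in control (log2 change 0.13, edgeR adjusted p = 0.321). The plakoglobin gene Jup (log2 change 0.13, edgeR adjusted p = 0.405) and the LIM protein gene Ajuba (0.28, edgeR adjusted p = 0.399) had the next smallest p-values. The core partners of the cadherin tail, named for that role after their values were seen, were abundant: beta-catenin Ctnnb1 had 686 ± 5 CPM in prolactin and 747 ± 52 CPM in control (log2 change -0.12, SE 0.069, edgeR adjusted p = 0.453), and alpha-catenin Ctnna1 245.9 ± 3.1 CPM in prolactin and 246 ± 7 CPM in control (log2 change -0.002, SE 0.053, edgeR adjusted p = 0.989). For p120-catenin Ctnnd1 the log2 change was 0.04 (SE 0.047, edgeR adjusted p = 0.748).

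None of the 7 desmosome genes passed in edgeR (before adjustment, 0 higher and 1 lower at p under 0.05; DESeq2 and limma-voom 0). Desmocollin Dsc2 had 19.8 ± 0.5 CPM in prolactin and 22.1 ± 0.3 CPM in control (log2 change -0.16, edgeR adjusted p = 0.202), and the plakophilins Pkp2 and Pkp3 had -0.08 and -0.09. Among 12 protocadherins outside the gene clusters, 10 had positive changes, and 0 passed edgeR (before adjustment, 2 higher and 0 lower at p under 0.05; 1 by DESeq2, 0 by limma-voom). Pcdh17 had 5.42 ± 0.38 CPM in prolactin and 4.20 ± 0.12 CPM in control (log2 change 0.37, edgeR adjusted p = 0.106), and Pcdh18 and Pcdh12 had 0.44 and 0.30. Among the 12 FAT, Dachsous, CELSR and calsyntenin genes 0 passed edgeR (before adjustment, 3 higher and 1 lower at p under 0.05; 1 by DESeq2, 0 by limma-voom). The giant cadherin Fat1 had 154 ± 4 CPM in prolactin and 128 ± 13 CPM in control (log2 change 0.26, edgeR adjusted p = 0.163), Fat4 a log2 change of 0.25 and Clstn3 one of -0.19.

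Of 14 nectins and immunoglobulin-type adhesion genes, 12 had positive changes and 0 passed edgeR (0 in either direction also with p under 0.05 before adjustment; DESeq2 and limma-voom 0), Epcam, Nectin3 and L1cam having log2 changes of 0.13, -0.12 and 0.28. Among 14 enzymes that process or shed cadherins, 0 passed edgeR (before adjustment, 4 higher and 2 lower at p under 0.05; 1 by DESeq2, 0 by limma-voom). The membrane-type matrix metalloproteinase gene Mmp14 had 72.7 ± 7.7 CPM in prolactin and 51.9 ± 9.3 CPM in control (log2 change 0.49, SE 0.13, edgeR adjusted p = 0.135), lowest in control library 3 at 41.5 CPM, as the mesenchymal markers were. Furin, which cleaves cadherin propeptides, had a log2 change of 0.19 (edgeR adjusted p = 0.237), and the sheddase gene Adam15 -0.17 (edgeR adjusted p = 0.222).

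Among 15 regulators of cadherin genes, 13 had positive changes and 0 passed edgeR (before adjustment, 3 higher and 0 lower at p under 0.05; 2 by DESeq2, 0 by limma-voom). The E-box factor Tcf4 had 78.0, 83.2 and 81.5 CPM in prolactin libraries, against 68.7, 68.8 and 70.0 CPM in control libraries (log2 change 0.23, SE 0.049, edgeR adjusted p = 0.081). Snai1, a repressor of Cdh1 through E-boxes, had 8.75 ± 1.17 CPM in prolactin and 6.56 ± 1.09 CPM in control (log2 change 0.41, SE 0.13, edgeR adjusted p = 0.210), while the epithelial factor Grhl3 stood under 1 CPM (log2 change 0.41, edgeR adjusted p = 0.294).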

How the data were processed

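Polyadenylated RNA was sequenced in 3 prolactin and 3 control libraries. The deposited read counts were made with featureCounts 2.0.3 on GENCODE M10 annotation, with names as the grouping key, per the file headers, without a strand option and without counting read pairs as 1 fragment. The submitters' processing notes name mm10, SAMtools 1.21, Subread 2.1.0 and DESeq2; for the aligner, a name was not given in the sources used here. Even numbers made up 53.9% to 56.3% of counts from 1 to 20, so that mates may be counted separately, and no interval from counts alone is given. A deposited table holds the authors' log2 fold changes and standard errors, p-values, a test statistic (score) and a mean signal per gene, per the file headers; DESeq2 1.42.0 on the counts gave those log2 fold changes within 1.0e-06, a tolerance set after the differences were known.

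edgeR 4.0.16 (R 4.3.3) used TMM factors; its filterByExpr step (count of 10, total of 15) kept 23924 of 48397 genes. The two-sided quasi-likelihood test had condition as its only term, with Benjamini-Hochberg adjustment over all tested genes and a threshold of 0.05. SEs come from the test statistic. In a simulation of the prolactin and control comparison on 23585 genes the fit found 34.7% of simulated log2 changes of 0.5, 69.4% of those of 1 and 93.9% of those of 2, and 8.23% of its calls were false. The simulated libraries were drawn independently, without the closeness of prolactin replicates 2 and 3, so these rates may not hold for the real libraries. Members and lists were chosen with earlier results of these data known. The genes named are the 10 members, those called in each list, the 3 of smallest p per list, and the 5 genes most like Cdh7; others were named after their values were seen. Of 185 list genes 184 matched by symbol and 1 by a RefSeq synonym (Afdn). Alternatives were other scalings, filters and tools (limma 3.58.1 with voom), a replicate block, leaving out each library, summing prolactin replicates 2 and 3, and halving the counts.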

Additional observations from a re-analysis of the deposited data

How the results depend on the processing

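With the settings of the report, edgeR called 156 genes higher and 25 lower in prolactin, and these counts moved with the processing: 470 and 127 with no filter, 776 and 303 by DESeq2, 464 and 134 with the replicate block, 42 and 2 with prolactin replicates 2 and 3 summed, and from 39 to 342 higher and from 1 to 234 lower over the fits that left out 1 library. With a filter of 1 CPM in 3 libraries 46 genes were lower. The cause was not tested. Cdh7 did not lie past the threshold without prolactin replicate 2 (log2 change 0.63), without prolactin replicate 3 (0.60) or with both summed (0.62). Cdh11 did so with no filter (log2 change 0.72) and with the replicate block (0.76). The genes were chosen with this comparison known, so these calls say nothing about how firm either difference is. The labels name no pairing of the replicates, and the correlations do not settle whether there was one. Deviations of same-numbered libraries from their group means correlated at 0.437, 0.29 and -0.0513 for numbers 1, 2 and 3 over 14798 genes. Prolactin replicates 1 and 2 correlated best with the control library of the same number. Prolactin replicate 3, which was close to prolactin replicate 2, correlated best with control replicate 2 (0.36). The block also called 3 processing enzymes and 1 regulator, and the fit with no filter 3 processing enzymes. Leaving out control replicate 3 called 3 of the FAT, Dachsous, CELSR and calsyntenin genes. It also called 1 of the nectins and immunoglobulin-type adhesion genes and 1 regulator. Cdh10 rests on 28 to 75 reads per library, and SEs reach 0.54 on the log2 scale among cadherins under 1 CPM. With all counts halved, the log2 change of Cdh10 was 0.53, against 0.58 from all reads.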

Other observations

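The chromosomal surroundings of Cdh7 were looked up by position. The nearest tested genes with a name were Cdh19 at 748 kb and Dsel at 1719 kb on one side, and Serpinb8 at 2372 kb and Serpinb2 at 2447 kb on the other. Cdh19, a cadherin of Schwann-lineage cells, had 4.89 ± 0.47 CPM in prolactin and 4.16 ± 1.17 CPM in control (SD, n = 3 each; log2 change 0.23, SE 0.19, edgeR adjusted p = 0.635). Dsel, a dermatan sulfate epimerase-like gene, had 14.5 ± 0.3 CPM in prolactin and 16.9 ± 0.9 CPM in control, lower in every prolactin library than in any control library (log2 change -0.22, SE 0.063, edgeR adjusted p = 0.162). Serpinb8 and Serpinb2 were under 1 CPM, with log2 changes of 0.18 and 0.81 (edgeR adjusted p = 0.718 and 0.197). None of the 4 neighbours passed edgeR's test, and the difference between their changes and that of Cdh7 was not tested.

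Neighbouring cadherin genes on chromosome 8 had unlike values. Cdh11 lies 3216 kb from Cdh8 and 1316 kb from Cdh5, and their log2 changes were 0.72, -0.16 and 0.04. Cdh3 lies 46.4 kb from Cdh1, with 0.534 ± 0.123 CPM in prolactin and 0.339 ± 0.118 CPM in control, and Tango6 at 12.8 kb on the other side of Cdh1 had 9.29 ± 0.05 CPM in prolactin and 9.29 ± 0.46 CPM in control (SD, n = 3 each).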
